A study of Mus musculus with 6 samples.

Results

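The Schlafen genes are described here as the 7 members of the family with the symbols *Slfn1*, *Slfn2*, *Slfn3*, *Slfn4*, *Slfn5*, *Slfn8* and *Slfn9*, chosen by symbol from the 59485 genes of the deposited table. Sciatic nerves were taken at postnatal day 4 from 3 animals labelled wild-type and 3 animals labelled Ht-PA-Cre; Adar1fl/fl;R26R, and each animal gave 1 RNA-seq library. In these mutants, the human tissue plasminogen promoter drives Cre in NC (neural crest) cells, the floxed alleles of *Adar* (the gene of the RNA-editing enzyme ADAR1) are the target, and R26R is a YFP tracer of the same cells. In the paper's crosses, animals called wild-type lack Cre and are Adar1fl/fl;R26R or Adar1fl/+;R26R, so they also carry floxed *Adar* and the tracer allele. The labels do not say which of these genotypes each control had. A whole nerve also holds cells that are not of NC origin, such as endothelial cells and blood cells, which keep their *Adar* alleles, so a value is a sum over cell types, and more cells of a type cannot be told apart from more RNA per cell.

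Schlafen genes are found in mammals as clusters of related copies, and were first described as regulators of growth and quiescence in developing T cells. Type I interferon raises many of them, through the receptor IFNAR, the kinases JAK1 and TYK2 and transcription factors that bind the interferon-stimulated response element (ISRE). Several Schlafen proteins cut or bind tRNA, and human SLFN11 limits the translation of viral proteins. By protein length, mouse members fall into short forms (*Slfn1* and *Slfn2*), intermediate forms (*Slfn3* and *Slfn4*) and long forms with a helicase-like end (*Slfn5*, *Slfn8* and *Slfn9*). The longest annotated coding sequences were of 337 and 378 codons for *Slfn1* and *Slfn2*, 640 and 602 for *Slfn3* and *Slfn4*, 884 for *Slfn5*, and 910 for both *Slfn8* and *Slfn9*.

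Values are reads counted per gene and divided by a DESeq2 size factor, and the libraries held 50938349 to 78250094 reads on genes. The targeted gene *Adar* had values of 1602, 2066 and 1133 in the wild-type libraries and of 11768, 9311 and 9773 in the mutant ones. All 3 mutant values lay above the controls, the opposite of what a deletion would give, but with 1 value per gene in the table, the floxed exons could not be read separately. Libraries are named below by their labels (control-labelled, mutant-labelled), from which every direction is drawn. Genes were compared with limma on log2(value + 1) over the 25802 genes with a mean of at least 10 in at least 1 group. Calls required 2-fold or more and an unadjusted p no higher than 0.05, and adjustment of p (Benjamini-Hochberg) ran over the whole set tested.

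All 7 members passed the filter on low values and all 7 were called higher in mutant-labelled libraries, where 13.9% of the genes tested were called higher, 10.4% were called lower and 24.2% were called in either direction. Each of them also passed 0.05 after adjustment, as did 11.5% of the genes tested among those called higher. In each of the 7, the lowest mutant-labelled value lay above the highest control-labelled value, as in 25.9% of the genes tested. The median log2 fold change of the members was 4.43, beside 0.03 over all genes tested. *Slfn4* rose most, while *Slfn3* (2.73) and *Slfn9* (2.76) had the smallest rises and changed places without control-labelled replicate 3 (2.99 and 2.63) and without mutant-labelled replicate 3 (2.85 and 2.76). Only 0.19% of the genes tested had a larger rise than *Slfn4*. Summed over the 7 members, the value went from 1235 ± 391 (SD, n = 3) to 19802 ± 1157 (n = 3), a ratio of means of 16.0.

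**Figure D1:**
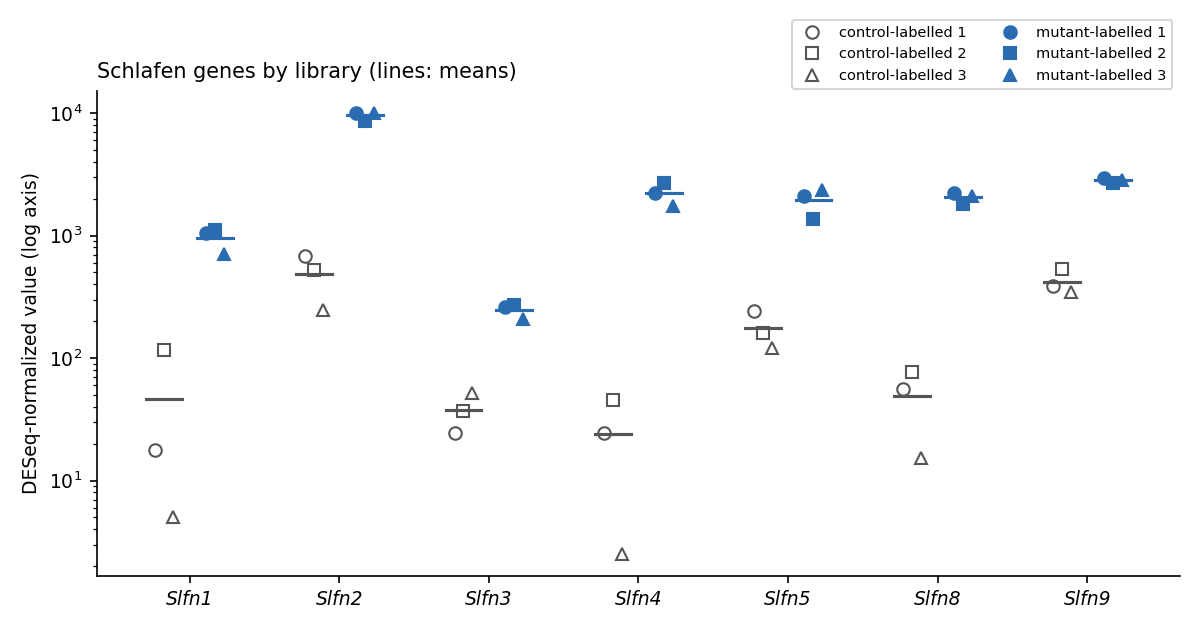
DESeq-normalized values (log axis) of the 7 Schlafen genes, with 1 point per library and lines at the means of the 3 control-labelled (open, grey) and 3 mutant-labelled (filled, blue) libraries. For every gene the 3 mutant-labelled points lie above the 3 control-labelled ones, and control-labelled replicate 3 is the lowest point of all genes but *Slfn3*.

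The starts of the short and intermediate members share a run of letters. RefSeq promoter windows (build GRCm38.p6, the assembly also named mm10, 250 bases before to 50 after each start site) were matched for 7 of the 7 members. Comparing the windows, a choice made after they were seen, gave ACTTCCTGG as the longest run held by *Slfn1*, *Slfn2*, *Slfn3* and *Slfn4* together. It was in 0.432% of 32851 promoter windows as read and in 0.843% on either strand, and in none of the windows of *Slfn5*, *Slfn8* and *Slfn9*. The stretches around it are shown, with the shared run in capitals, because the windows of the long members lack it.
*Slfn1*, chr11:83116696-83116804, + strand: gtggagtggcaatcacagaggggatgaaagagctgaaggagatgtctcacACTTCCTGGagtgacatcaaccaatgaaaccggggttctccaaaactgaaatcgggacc
*Slfn2*, chr11:83065007-83065115, + strand: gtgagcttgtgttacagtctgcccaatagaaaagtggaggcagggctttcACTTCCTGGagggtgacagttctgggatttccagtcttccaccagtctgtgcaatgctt
*Slfn3*, chr11:83191238-83191346, + strand: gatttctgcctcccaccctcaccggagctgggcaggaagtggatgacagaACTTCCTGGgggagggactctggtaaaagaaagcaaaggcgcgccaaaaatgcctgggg
*Slfn4*, chr11:83175063-83175171, + strand: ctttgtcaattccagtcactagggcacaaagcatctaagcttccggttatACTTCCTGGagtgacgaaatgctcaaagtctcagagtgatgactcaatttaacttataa
In *Slfn1* and *Slfn4* the identical run went on to 15 bases (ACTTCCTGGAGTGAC) and began 74 and 73 bases before the start site, while in *Slfn2* and *Slfn3* the shared letters began 55 and 42 bases before it. Neither the ISRE core, searched on both strands as GAAA, any 2 bases and GAAA, nor the interferon gamma activated site (GAS), searched as TTCNNNGAA, was found in these 4 windows. Only exact letters were searched, so near matches and elements outside the windows were missed.

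Of the short members, *Slfn2* reached the highest value of the family and *Slfn1* was the most uneven among the controls. *Slfn2* (GSMG0005653, mm10 chromosome 11, 83065112 to 83070676, plus strand), which mouse T cells and monocytes need to stay quiescent, had values of 675, 524 and 246 in the controls (replicates 1, 2 and 3, the order used throughout) and of 10076, 8687 and 9933 in the mutants. The lowest mutant-labelled value was 12.9 times the highest control-labelled one, and the mutant-labelled values spread by only 7.99% (coefficient of variation, CV). It rose from 482 ± 218 (SD, n = 3) to 9565 ± 764 (n = 3), a fitted log2 change of 4.43 ± 0.32 (standard error), with a limma adjusted p of 3.26e-05. *Slfn1* (GSMG0005654, chromosome 11, 83116820 to 83122669, plus strand), the founding member, which slows the growth of developing T cells when forced on, had values of 17.8, 116 and 5.07 in the controls and of 1056, 1103 and 705 in the mutants. Its control-labelled values lay 22.9-fold apart, resting on 16, 123 and 4 reads, whereas the mutant-labelled ones lay 1.56-fold apart. The groups did not overlap, and *Slfn1* rose from 46.4 ± 60.8 to 955 ± 217 (5.30 ± 0.90 in log2 units, fitted change and standard error, limma adjusted p = 0.00247). The log2 fold change of *Slfn1* was 6.46 without control-labelled replicate 2 and 4.32 without control-labelled replicate 3, and the call was kept in both cases.

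The intermediate members lie next to each other and differed widely in their rise. *Slfn4* (GSMG0005656, chromosome 11, 83175186 to 83190216, plus strand), known from macrophages and other myeloid cells, had values of 24.4, 45.4 and 2.53 in control-labelled and of 2234, 2704 and 1749.7 in mutant-labelled libraries. The controls rested on 22, 48 and 2 reads, so that its baseline is close to the limit of detection in replicate 3, and the lowest mutant-labelled value was still 38.6 times the highest control-labelled one. It rose from 24.1 ± 21.4 to 2229 ± 477, a rise of 7.09 in log2 units with a standard error of 0.81 (limma adjusted p = 0.000331). This value was 5.999 without control-labelled replicate 3 and 7.86 without control-labelled replicate 2. *Slfn3* (GSMG0005657, chromosome 11, 83191330 to 83215143, plus strand), linked in rodents to the differentiation of intestinal epithelium and to T cells, had values of 24.4, 36.9 and 52.0 in the controls and of 263, 271 and 207 in the mutants. It was the only member with its highest control-labelled value in replicate 3, and the lowest mutant-labelled value lay 3.98-fold above it. *Slfn3* rose from 37.7 ± 13.8 to 247 ± 35.0 (2.73 ± 0.36 in log2 units, fitted change and standard error, limma adjusted p = 0.000656).

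Each long member had the ISRE core in its promoter windows, the element through which type I interferon acts on its target genes. The motif was in 3.44% of the 32851 promoter windows and in 4 of the 8 windows of the members. Of these, *Slfn8* has 2, for 2 start sites, which overlap and hold the same match. By gene, the 3 long members of the 7 had it, beside 1079 of the 27025 genes with windows. The match of *Slfn5* runs on into a stretch of A. The first window of each long member is printed whole, with the ISRE core in capitals. No window of a member held the GAS letters, found in 8.3% of all windows, and a match of letters does not show that the site is used.
*Slfn5*, chr11:82951852-82952151, + strand: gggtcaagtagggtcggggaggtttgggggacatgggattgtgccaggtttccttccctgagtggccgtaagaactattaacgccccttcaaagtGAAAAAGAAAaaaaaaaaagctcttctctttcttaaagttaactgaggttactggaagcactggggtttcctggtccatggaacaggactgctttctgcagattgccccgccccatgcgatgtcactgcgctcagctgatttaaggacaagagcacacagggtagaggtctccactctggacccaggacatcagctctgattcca
*Slfn8*, chr11:83020761-83021060, - strand: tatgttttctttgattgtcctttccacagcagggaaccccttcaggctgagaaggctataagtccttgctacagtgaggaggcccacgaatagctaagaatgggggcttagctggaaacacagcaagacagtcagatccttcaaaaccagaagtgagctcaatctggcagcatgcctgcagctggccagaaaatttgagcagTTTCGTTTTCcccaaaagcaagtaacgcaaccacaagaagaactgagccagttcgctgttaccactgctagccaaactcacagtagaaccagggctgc
*Slfn9*, chr11:82991781-82992080, - strand: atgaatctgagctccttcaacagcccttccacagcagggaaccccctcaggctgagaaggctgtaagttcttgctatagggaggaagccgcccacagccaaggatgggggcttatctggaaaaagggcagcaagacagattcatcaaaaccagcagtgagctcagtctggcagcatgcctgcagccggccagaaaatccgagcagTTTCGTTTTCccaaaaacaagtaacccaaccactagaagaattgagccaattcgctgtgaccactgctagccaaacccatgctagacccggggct
In *Slfn8* and *Slfn9* the core reads TTTCGTTTTC, the motif on the other strand, and begins 48 and 45 bases before the start site, or 136 bases before the other start site of *Slfn8*, while in *Slfn5* it reads GAAAAAGAAA and begins 155 bases before it. Both the *Slfn8* and *Slfn9* windows also hold the run TCTGGCAGCATGCCTGCAGC of 20 bases, and they matched at 80.8% of the positions of a global alignment, against 46.5 to 53.0% for all other pairs of members.

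The fitted rises of the long members ran from 2.76 to 5.63 in log2 units. *Slfn5* (GSMG0005651, chromosome 11, 82952094 to 82964850, plus strand), whose human counterpart is a nuclear protein, had values of 242, 162 and 120.4 in control-labelled and of 2117, 1356 and 2336 in mutant-labelled libraries. Mutant-labelled replicate 2 was the lowest of its group, and the groups did not overlap. *Slfn5* rose from 175 ± 61.9 to 1936 ± 515, a fitted log2 change of 3.48 ± 0.29 (standard error), with a limma adjusted p of 6.78e-05. *Slfn8* (GSMG0007110, chromosome 11, 83002158 to 83020810, minus strand), related to human SLFN11 and SLFN13, had values of 55.5, 76.5 and 15.2 in the controls and of 2245, 1815 and 2095 in the mutants. The controls lay 5.03-fold apart and the mutants 1.24-fold apart. It rose from 49.1 ± 31.2 to 2051 ± 218, a rise of 5.63 in log2 units with a standard error of 0.51 (limma adjusted p = 0.000101), which was 4.95 without control-labelled replicate 3. *Slfn9* (GSMG0007108, chromosome 11, 82978412 to 82991832, minus strand), the close neighbor of *Slfn8*, had values of 391, 529 and 343 in control-labelled and of 2944, 2687 and 2824 in mutant-labelled libraries. It was the steadiest member in both groups, with a CV of 22.9% among the controls and of 4.57% among the mutants. *Slfn9* rose from 421 ± 96.5 to 2818 ± 129, a fitted log2 change of 2.76 ± 0.17 (standard error), with a limma adjusted p of 1.57e-05.

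Reads of near-identical copies can be split by the counting, so the share of each member's annotated transcripts that another gene repeats was measured. Of all stretches of 130 bases, the length of a read, none in *Slfn1*, *Slfn2* and *Slfn4* occurred in a transcript of another gene. The share was 0.576% in *Slfn8* and 2.15% in *Slfn9*, each shared with the other or with *Slfn10-ps*, and 1.88% in *Slfn3*, shared with *Gm11427*. In *Slfn5* it was 5.74%, all of it shared with the antisense *Slfn5os*, which had at most 22.5 in any library. *Slfn1* also overlaps an unnamed locus on its own strand that stayed between 0 and 24.1. How strand was treated in the counting is not given in the sources used here.

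Levels of different members were compared per kb of annotated exon, on the scale of normalized value per kb, because a longer transcript gives more reads. The counted constitutive regions may be shorter than these exons. In control-labelled libraries, *Slfn2* was highest at 290 ± 131 per kb, followed by *Slfn9* at 70.6 ± 16.2 and *Slfn5* at 27.6 ± 9.78, and these 3 did not overlap. *Slfn1* (24.9 ± 32.6), *Slfn8* (11.999 ± 7.62), *Slfn3* (11.1 ± 4.04) and *Slfn4* (6.08 ± 5.40) came after them, each overlapping its neighbors in this order, and *Slfn1* overlapped *Slfn5*. In mutant-labelled libraries, *Slfn2* was again the highest, at 5748 ± 459 per kb. *Slfn4* came next at 562 ± 120 per kb, from the last place, and overlapped *Slfn1* (512 ± 117), as *Slfn1* did *Slfn8* (501 ± 53.3) and *Slfn8* did *Slfn9* (473 ± 21.6). *Slfn5* at 306 ± 81.3 and *Slfn3* at 72.4 ± 10.3 per kb were below them without overlap.

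**Figure D2:**
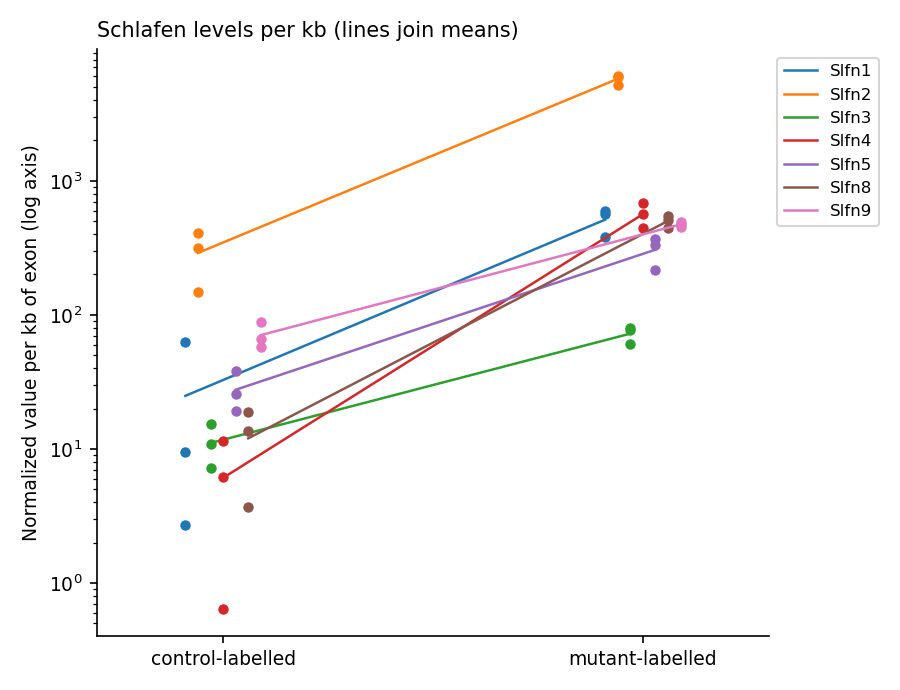
Normalized value per kb of annotated exon (log axis) of the 7 members in the 3 control-labelled and 3 mutant-labelled libraries, with 1 point per library and lines that join the group means. *Slfn2* is highest in both groups, and the lines of *Slfn4* and *Slfn8* are the steepest, so that *Slfn1*, *Slfn4*, *Slfn8* and *Slfn9* lie close together in the mutant-labelled libraries.

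For 5 pairs of members, the log2 ratio within each library was compared, taken as the difference of their log2(value + 1), so that the added 1 pulls ratios toward 0 where a member had only a few reads, as in control-labelled replicate 3. The smallest two-sided p that exact permutation of 3 and 3 libraries allows is 0.1, which became 0.125 after adjustment over the 5 pairs. The log2 ratio of *Slfn4* to *Slfn3* went from -1.20 ± 2.34 (SD, n = 3) to 3.16 ± 0.13 (n = 3), a difference of 4.36 with a standard error of 1.36 (exact permutation p = 0.1). This difference was 3.01 without control-labelled replicate 3, 4.96 without replicate 1 and 5.11 without replicate 2. For *Slfn8* to *Slfn9*, the log2 ratio went from -3.33 ± 0.94 to -0.46 ± 0.09, a difference of 2.86 with a standard error of 0.54 (exact permutation p = 0.1). *Slfn8* was thus far below *Slfn9* in every control-labelled library and near it in every mutant-labelled one, by normalized value. The log2 ratio of *Slfn5* to *Slfn8* changed by -2.14 (standard error 0.56) and that of *Slfn5* to *Slfn2* by -0.94 (standard error 0.26), each with an exact permutation p of 0.1 and without overlap between the groups. Only the ratio of *Slfn2* to *Slfn1* overlapped between the groups, with a difference of -0.88 and a standard error of 1.06 (exact permutation p = 0.4), which was -1.91 without control-labelled replicate 2 and -0.32 without control-labelled replicate 3.

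Members differed more among control-labelled than among mutant-labelled libraries. The median CV of the 7 members was 45.2% in the controls and 14.2% in the mutants, beside 19.8 and 21.2% over all genes tested. Control-labelled replicate 3 held the lowest control value in 6 of the 7 members, and in 31.4% of all genes tested. The same library was lowest in 9 of the 13 genes of interferon signaling described below and in 8 of 11 macrophage markers. Control-labelled replicate 2 had the highest control values of *Slfn1*, *Slfn4*, *Slfn8* and *Slfn9*, and of 30.5% of all genes tested. It was also highest in 8 of the 13 genes of interferon signaling, *Irf1* and *Irf7* among them. The part of these differences between animals in the results was not tested, and all 7 members stayed called with any 1 library left out.

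The rise was compared with the genes that flank the cluster, which spans 263 kb on chromosome 11. Of 13 neighbors with a symbol within 200 kb of its ends, not counting *Slfn14* of the same family, 11 were tested, 1 was called higher and none was called lower. The median log2 fold change of the neighbors was 0.26. On the side of *Slfn5*, *Unc45b*, a chaperone of muscle myosin, had values of 152, 159 and 122 in control-labelled and of 336, 195 and 535 in mutant-labelled libraries (1.19 ± 0.36 in log2 units, fitted change and standard error, limma adjusted p = 0.0324). Skeletal muscle markers followed the same order among the mutants, with a summed value of 6109.7 to 32211 in the controls and of 40329.7 to 306302 in the mutants, and their part in the result was not tested. The call of *Unc45b* was lost without mutant-labelled replicate 3. Below 2-fold, *Zfp830* (log2 fold change 0.61, limma adjusted p = 0.00513) and *Ap2b1* (0.39, 0.044) also passed 0.05 after adjustment, both higher in the mutants, and *Rffl* had 0.89 (0.127). On the side of *Slfn3*, *AI662270* had one of -0.16 (adjusted p = 0.679) and *AA465934* one of -0.35 (adjusted p = 0.484). *Slfn5os*, the antisense neighbor of *Slfn5*, was not tested, with values of at most 5.55 in the controls and of 22.5, 0 and 4.95 in the mutants.

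Inside the cluster, other loci rose too. *Slfn10-ps* (GSMG0007112, chromosome 11, 83028130 to 83040534, minus strand), a pseudogene between *Slfn8* and *Slfn2*, had values of 21.1, 10.4 and 2.53 in control-labelled and of 234, 259.5 and 474 in mutant-labelled libraries. It rose by 4.999 on the log2 scale (standard error 0.67, adjusted p = 0.000765 from limma), and 3.81% of its stretches of 130 bases are shared with *Slfn8* or *Slfn9*. Of 9 loci without a symbol inside the cluster, 6 were tested and 4 were called higher, and their summed value went from between 134 and 157 to between 668 and 1151. The family's outlying genes stayed low. *Slfn14*, beyond *Slfn3*, had at most 3.78 in the controls and 8.73 in the mutants and was not tested. *Slfnl1*, on chromosome 4, had values of 0, 0 and 2.53 against 3.64, 6.75 and 28.7, and its call (log2 fold change 2.75, standard error 1.10) had an adjusted p of 0.0853 from limma. *Slfn6* and *Slfn7* were not analysed here.

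**Figure D3:**
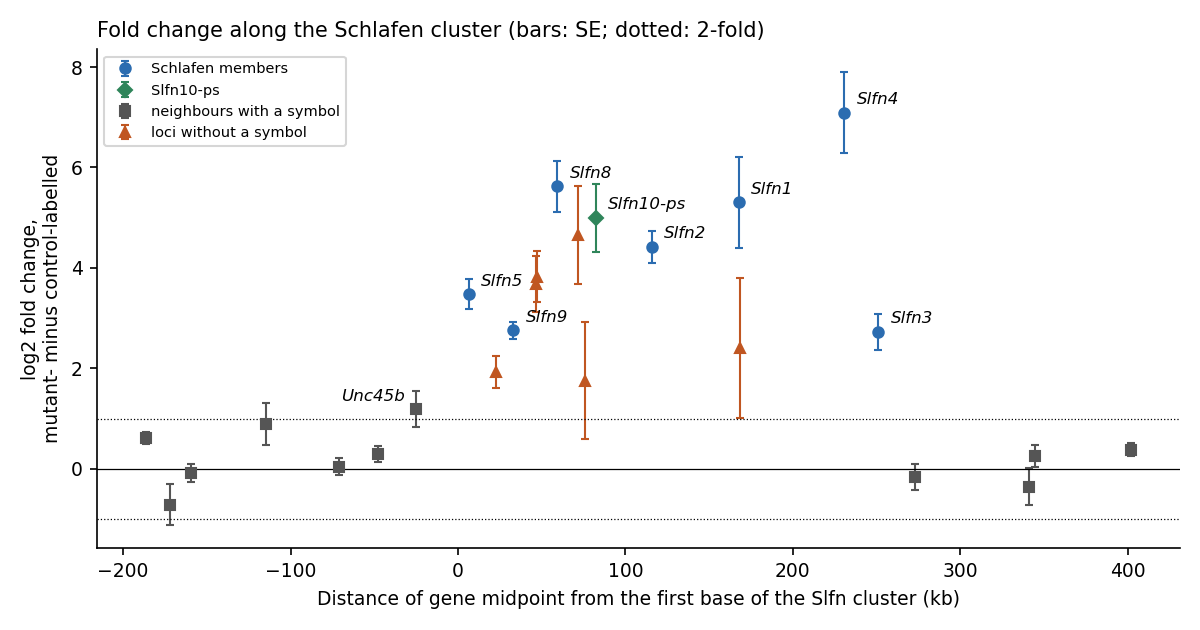
Log2 fold change (mutant- minus control-labelled, bars are standard errors) of each tested gene against the distance of its midpoint from the first base of the cluster in kb, with dotted lines at 2-fold and triangles for loci without a symbol. The 7 Schlafen members and *Slfn10-ps* lie between 2.73 and 7.09, while among the neighbors with a symbol *Unc45b* at 1.19 is the single one called.

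The genes that carry the interferon signal to such targets were read from a list of 13. Of these, 9 were called higher and none lower, with a median log2 fold change of 2.94. *Ifnb1* and *Ifna4*, at 0 in the controls, lay above this median both as fitted and at their lower bounds (7.11 and 5.12). Setting them to the bounds therefore could not move it. The ligand *Ifnb1* was at 0 in every control-labelled library and at 466, 408 and 507 in the mutant-labelled ones, at least 139-fold higher against a floor of 3 reads per library. *Irf7*, a transcription factor that amplifies interferon production, had values of 492, 1947 and 204 in the controls and of 99343, 70931 and 75697 in the mutants (log2 fold change 7.12, adjusted p = 0.000115 from limma). *Stat2* rose by 2.98 and *Irf9* by 2.94 on the log2 scale. The receptor chains and kinases stayed below 2-fold and were not called, but each differed without overlap between the groups. *Ifnar2* (log2 fold change 0.75, limma adjusted p = 0.000505) and *Jak1* (0.67, 0.00107) were higher in the mutants, and *Tyk2* was lower (-0.57, 0.0144), while *Ifnar1* had -0.38 with a limma adjusted p of 0.0655. The floor accounts for counting error alone, because PCR copies were not told apart by molecular identifiers.

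Since Schlafen proteins act on tRNA, other ribonucleases reported to cut tRNA, and a ribonuclease inhibitor, were read from a list of 7. Of the 5 tested, 1 was called higher and none lower. *Samd9l*, an antiviral gene induced by interferon, had values of 2286, 2624 and 1064 in control-labelled and of 27490.4, 21237 and 25557 in mutant-labelled libraries, without overlap (3.73 ± 0.30 in log2 units, fitted change and standard error, limma adjusted p = 5.46e-05). *Elac2*, which trims tRNA precursors, had a log2 fold change of -0.09 (adjusted p = 0.551) and *Rnh1*, the ribonuclease inhibitor, one of 0.23 (adjusted p = 0.147). *Ang*, listed together with *Rnase4*, had one of -0.26 (adjusted p = 0.298). *Ang2* was at 0 throughout, and *Ang4* had at most 2.91.

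**Figure D4:**
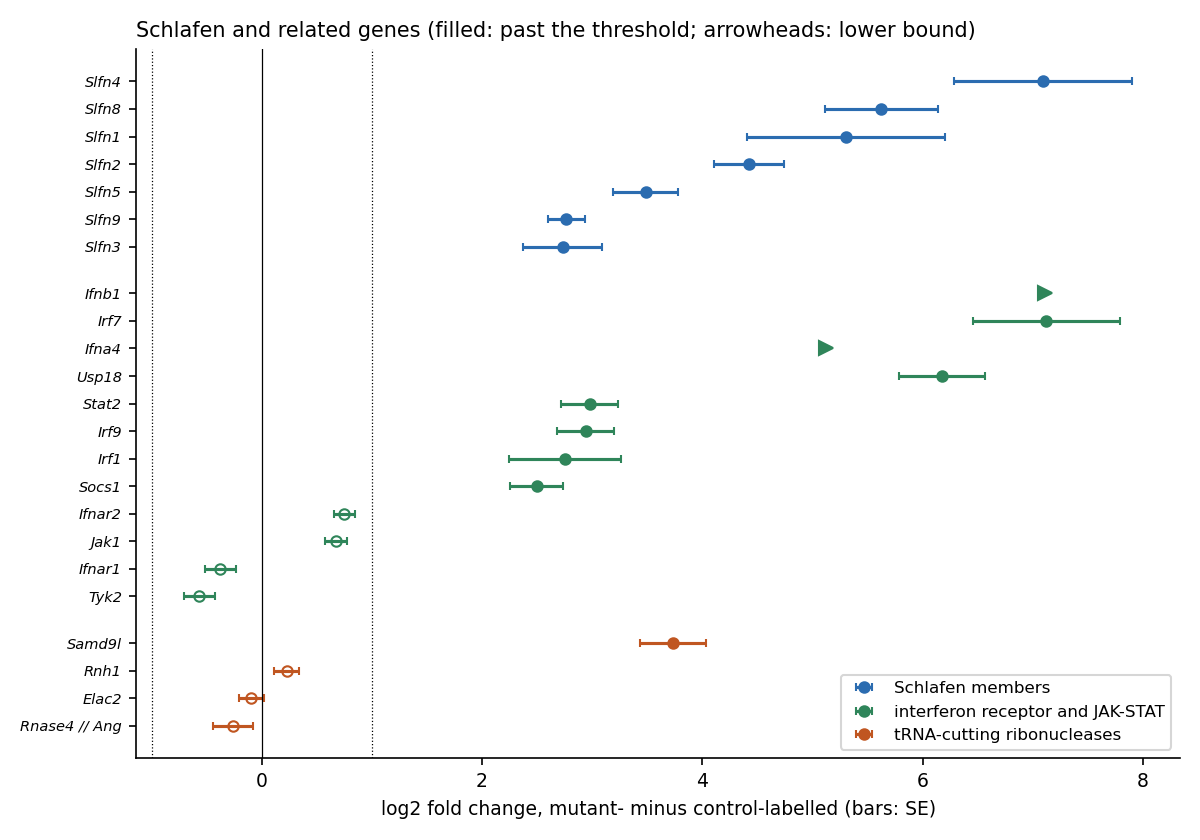
Log2 fold changes (mutant- minus control-labelled, bars are standard errors) of the 7 Schlafen members, 12 of the 13 genes of interferon signaling and 4 of the 5 tested genes of the ribonuclease list, which includes the inhibitor *Rnh1*. Points are filled where called, with dotted lines at 2-fold and arrowheads at the lower bounds of *Ifnb1* and *Ifna4*. The members span 2.73 to 7.09, the interferon signaling genes not called are *Ifnar1*, *Ifnar2*, *Jak1* and *Tyk2*, and *Samd9l* is the single gene of the ribonuclease list called.

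Because Schlafen genes are expressed in T cells and myeloid cells, markers of other cells were read in the same libraries. Of 8 T cell markers found, 5 of the 7 tested were called higher, and their summed value went from between 132 and 232 to between 768 and 996, most of it from *Lck* at 492 to 567 in the mutants. *Cd3e* overlapped between the groups (5.07 to 25.5 against 5.93 to 24.7), and *Cd3d* was at 0 in the controls and at most 9.89 in the mutants. All 6 NK cell markers were called higher, from a sum of 18.9 to 43.3 to one of 312 to 671. Of 9 monocyte or neutrophil markers, 2 of the 7 tested were called higher (summed value 94.5 to 218 against 516 to 983). These were *Ly6c2*, a surface marker of inflammatory monocytes, with 26.7, 13.2 and 19.0 against 346, 525 and 315 (log2 fold change 4.28), and *Csf3r*, the receptor of a neutrophil growth factor, with 5.55, 14.2 and 20.3 against 143, 155 and 85.1 (log2 fold change 3.28). The neutrophil marker *Ly6g* was at 0 in the controls and at most 5.93 in the mutants. The summed macrophage markers overlapped (18319 to 23449 against 16496 to 20020.0), with 3 of 11 genes called higher and 4 lower. B cell markers overlapped as well (113 to 162 against 101 to 127), with 0 of the 5 tested called. Dendritic (1 of 3 tested higher, 1 lower) and endothelial cell markers (0 of 6) had overlapping sums, and 2 of 6 fibroblast markers were called lower (sum 1779278 to 2109010.5 against 724357 to 1065305). Of 8 Schwann cell markers, 4 were called lower and 1 higher (sum 1134336 to 1502405 against 55841 to 211351), and *Sox10*, which defines the lineage, had 12618, 11719 and 10919.5 in control-labelled and 9171, 5838 and 6828 in mutant-labelled libraries, lower without overlap but less than 2-fold (log2 fold change -0.71, limma adjusted p = 0.00874). The part of these cell types in the rise of the Schlafen genes was not tested.

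The genes whose values over the 6 libraries were most like those of each member were found by the root mean square (RMS) difference of log2 values centered on each gene's mean. The mean was taken over both groups, so the measure keeps the rise itself, and genes with a similar log2 fold change come out near. Shared regulation was not tested. *Slfn1* was nearest to *Rtp4* (RMS difference 0.33), *Ifi47* (0.41) and *Batf2* (0.43). For *Slfn2* these were *Ddx58*, which encodes the RNA sensor RIG-I (0.24), *Madcam1* (0.25) and *Xdh* (0.25). *Slfn4* was nearest to *Oas1g* (0.31), *Ifit1bl2* (0.34) and *Oas2* (0.40), a set with 2 genes of the OAS enzymes that sense double-stranded RNA. *Slfn8* was nearest to *Cd72* (0.23), *Ifih1*, which encodes the RNA sensor MDA5 (0.25), and *Phf11b* (0.25). *Slfn3* was nearest to *Sall1* (0.09), *Rab11fip1* (0.14) and *Zfp365* (0.17), and *Slfn5* to *Eda2r* (0.16), *Myo16* (0.18) and *Vcam1* (0.18). *Slfn9* was nearest to *Irf5* (0.10), *Cebpb* (0.10) and *Rnf135* (0.11). Among the members themselves, *Slfn3* and *Slfn9*, with log2 fold changes of 2.73 and 2.76, were the closest pair (0.42). *Slfn3* and *Slfn4*, which lie side by side but had 2.73 and 7.09, were the most distant (2.57).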

How the data were processed

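RNA-seq of P4 sciatic nerves was used from 3 control and 3 mutant animals, and groups and replicate numbers come from the sample labels. The authors mapped reads to mm10 with STAR 2.4.0, counted those on constitutive regions of FAST DB genes and divided them by DESeq2 size factors, and the deposited signal is this normalized value per gene and library. Dividing by the value of 1 read gave whole reads (within 0.01) for 100% of values in each library, so that the counted reads were recovered.

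log2(value + 1) was fitted with limma (lmFit, eBayes with trend) as mutant minus control over 25802 genes. The members and gene lists were chosen with earlier results of these data known. All members were named, with all genes of pathway lists under 8, except that 1 gene of each of the 2 pathway lists counts in its list but is not reported here. From longer pathway lists, the largest change past the threshold and the smallest change were to be named, and *Zfp830*, *Ap2b1*, *Rffl*, further interferon signaling genes and the cell type markers given by name were added after their values were seen. Of the neighbors, the nearest pair on each side and those called were named. Promoter windows are those of RefSeq (GRCm38.p6), and transcripts and exons those of GENCODE on the same assembly.

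The results were recomputed 18 times, with 1 of the 6 libraries omitted or with 1 of 12 settings changed: pseudocounts of 0.1 and 10, other filters, other scalings, eBayes without trend, an adjusted p, edgeR and DESeq2 on the recovered reads, and a replicate block. Scripts were tested on simulated data. The expression filter of the study's methods needs intergenic reads and was not applied. R 4.3.3 was used with limma 3.58.1, edgeR 4.0.16 and DESeq2 1.42.0, and Python 3.11.15 with Biopython 1.88.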

Additional observations from a re-analysis of the deposited data

How the results depend on the processing

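All 7 members stayed called higher when 1 of 12 settings was changed or 1 of the 6 libraries was omitted (7 of 7 each time), and their adjusted p was at or under 0.05 in all 18 fits of each member, with 0.0231 the highest (*Slfn1*, eBayes without trend). Across these fits the log2 fold change ran from 4.32 to 6.46 for *Slfn1*, 5.999 to 7.86 for *Slfn4*, 4.95 to 6.08 for *Slfn8*, 4.00 to 4.73 for *Slfn2*, 3.25 to 3.75 for *Slfn5*, 2.46 to 2.99 for *Slfn3* and 2.63 to 2.94 for *Slfn9*. The number of interferon signaling genes (9) and of ribonuclease genes (1) called higher did not move, and the 5 ratios between members kept their sign under pseudocounts of 0.1 and 10 and with each library left out, and over all of these the difference ran from 3.01 to 5.11 for *Slfn4* to *Slfn3*, 2.32 to 3.14 for *Slfn8* to *Slfn9*, -2.62 to -1.70 for *Slfn5* to *Slfn8*, -1.09 to -0.75 for *Slfn5* to *Slfn2* and -1.91 to -0.26 for *Slfn2* to *Slfn1*.

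Counts near the limit moved. Of the 2 tested relatives called higher, 1 stayed with a pseudocount of 10, with a minimum mean of 50 and with an adjusted p at or under 0.05, and leaving out 1 library gave 1 to 2 (1 without control replicate 1, control replicate 2 or mutant replicate 3). *Slfnl1*, with at most 29 reads in a library, was lost with a pseudocount of 10. Among the neighbors, rescaling to the same total gave 2 called higher. Leaving out 1 library gave 0 (without mutant replicate 3) to 2 (without control replicate 1 or 2) called higher, and 0 to 1 (without control replicate 1) called lower. The genes that joined were *Rffl* among those called higher and *Gm11423* among those called lower. The cause was not tested. Over all genes, the number called went from 6251 to between 4706 and 6892. Rescaling to the same total moved the median log2 fold change of all genes tested from 0.03 to 0.20, and the share of higher among the calls from 57.3 to 66.4%. With 3 animals in a group, differences below 2-fold were not called whatever their p.

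The replicate numbers of the labels mark different animals, and deviations of same-numbered libraries from their group means were not correlated (-0.06, -0.06 and 0.01 for numbers 1, 2 and 3). With the number as a replicate block, 7 members, 9 interferon signaling genes, 1 ribonuclease gene, 2 relatives and 1 neighbor were called higher, and 6149 genes in all.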
